A study of Mus musculus with 30 samples.

Results

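Described here are 31 genes of cholesterol and fatty acid synthesis, taken by name from a table that lists 48709 genes, across all 30 libraries of the series. All 31 passed the filter on low values that left 12946 genes for testing. By role, 7 belong to the mevalonate pathway, 11 act between squalene synthesis and cholesterol, 4 regulate or carry sterols, and 9 supply, build, elongate or desaturate fatty acids. The cells were C2C12, an established mouse myoblast line labelled as muscle progenitor cells. They were grown in high-glucose DMEM with fetal bovine serum, which is the day 0 group, and then switched to differentiation medium with horse serum that carried 0, 2 or 5 µM Cr(VI) as potassium chromate for collection on days 1, 2 and 4. Each of the 10 groups held 3 libraries that the labels call biological replicates without saying whether they came from separate cultures, so p-values measure only the spread between these libraries, which may be technical. Medium and serum changed together with differentiation between day 0 and every later day, so these cannot be told apart in a comparison with day 0.

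Cholesterol is assembled from acetyl-CoA by way of mevalonate, farnesyl diphosphate, squalene and lanosterol, and fatty acids are built from the same acetyl-CoA by way of malonyl-CoA. Most genes of both routes are textbook targets of the SREBP transcription factors, the products of Srebf1 and Srebf2, which Scap escorts out of the endoplasmic reticulum when membrane sterol is low and which Insig proteins hold there when it is plentiful. Differentiating myoblasts fuse into myotubes, whose growing membranes contain cholesterol and unsaturated fatty acids made in part by these enzymes.

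The start-site windows of 7 genes are shown as background, and no expression result depends on them: the 4 genes with the largest called difference between 5 and 0 µM on day 4 (Tm7sf2, Pmvk, Dhcr7 and Acaca), the SREBP retention factor Insig1, the SREBP gene Srebf1, and Hmgcs1, which was added after the search because no other member window held the sterol regulatory element letters TCACNCCAC. Each runs 5′ to 3′ on the gene's strand from 250 bases before to 50 bases after the RefSeq start on build GRCm38.p6, and capitals mark matches to TCACNCCAC or to the CCAAT box, read as CCAAT or, on the other strand, ATTGG. The windows are Tm7sf2 (chr19:6067801-6068100, minus strand), Pmvk (chr3:89454291-89454590, plus strand), Dhcr7 (chr7:143829964-143830263, plus strand), Acaca (chr11:84195188-84195487, plus strand), Insig1 (chr5:28071162-28071461, plus strand), Srebf1 (chr11:60222532-60222831, minus strand) and Hmgcs1 (chr13:119690101-119690400, plus strand). RefSeq lists 2 starts for Pmvk and 3 each for Dhcr7 and Srebf1. Of these the window with the most marked matches is shown, so the choice favours matches: the other windows held 0 of either motif for Pmvk and Dhcr7, and 0 and 1 CCAAT box for Srebf1.
Tm7sf2: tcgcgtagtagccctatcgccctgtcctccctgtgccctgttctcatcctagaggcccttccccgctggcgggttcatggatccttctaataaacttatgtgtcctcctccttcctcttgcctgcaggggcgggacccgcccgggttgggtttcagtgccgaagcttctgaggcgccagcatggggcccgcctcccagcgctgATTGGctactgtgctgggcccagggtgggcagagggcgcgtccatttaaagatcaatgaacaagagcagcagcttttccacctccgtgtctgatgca
Pmvk: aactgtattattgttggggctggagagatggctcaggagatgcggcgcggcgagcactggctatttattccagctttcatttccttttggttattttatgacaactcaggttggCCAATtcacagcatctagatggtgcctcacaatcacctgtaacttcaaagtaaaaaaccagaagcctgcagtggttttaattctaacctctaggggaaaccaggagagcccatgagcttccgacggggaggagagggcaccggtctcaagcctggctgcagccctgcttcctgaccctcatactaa
Dhcr7: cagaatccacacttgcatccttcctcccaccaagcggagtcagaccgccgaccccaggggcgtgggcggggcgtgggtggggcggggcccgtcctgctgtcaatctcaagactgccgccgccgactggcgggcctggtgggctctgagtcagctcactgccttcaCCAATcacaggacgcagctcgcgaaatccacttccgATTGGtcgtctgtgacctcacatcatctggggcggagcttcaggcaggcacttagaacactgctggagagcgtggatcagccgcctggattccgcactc
Acaca: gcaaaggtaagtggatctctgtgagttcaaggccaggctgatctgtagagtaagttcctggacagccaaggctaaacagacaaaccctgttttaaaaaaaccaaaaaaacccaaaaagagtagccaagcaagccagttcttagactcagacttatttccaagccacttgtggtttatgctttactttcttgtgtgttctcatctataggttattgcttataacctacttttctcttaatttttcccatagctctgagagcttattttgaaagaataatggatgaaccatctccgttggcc
Insig1: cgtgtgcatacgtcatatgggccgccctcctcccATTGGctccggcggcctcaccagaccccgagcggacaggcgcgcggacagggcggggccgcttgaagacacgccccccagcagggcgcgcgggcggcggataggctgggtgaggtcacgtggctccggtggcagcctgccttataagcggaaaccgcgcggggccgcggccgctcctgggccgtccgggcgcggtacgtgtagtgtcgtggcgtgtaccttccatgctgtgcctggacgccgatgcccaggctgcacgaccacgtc
Srebf1: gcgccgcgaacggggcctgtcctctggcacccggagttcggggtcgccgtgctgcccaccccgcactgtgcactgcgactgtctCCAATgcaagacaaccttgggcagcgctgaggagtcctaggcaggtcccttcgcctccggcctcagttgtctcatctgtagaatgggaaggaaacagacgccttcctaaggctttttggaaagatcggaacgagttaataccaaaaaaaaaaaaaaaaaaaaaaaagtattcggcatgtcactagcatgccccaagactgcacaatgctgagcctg
Hmgcs1: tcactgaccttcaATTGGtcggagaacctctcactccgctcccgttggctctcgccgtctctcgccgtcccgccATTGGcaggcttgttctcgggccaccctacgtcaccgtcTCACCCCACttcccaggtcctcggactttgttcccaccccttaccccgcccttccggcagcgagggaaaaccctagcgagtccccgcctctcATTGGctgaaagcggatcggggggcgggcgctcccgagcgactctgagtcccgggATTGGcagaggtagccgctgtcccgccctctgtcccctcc
The Hmgcs1 window carried TCACCCCAC with its first base at -137 from the start, and 4 ATTGG matches at -237, -176, -45 and 11. Tm7sf2 had ATTGG at -47, Pmvk had CCAAT at -136, Insig1 had ATTGG at -216, and Srebf1 had CCAAT at -166. Dhcr7 had CCAAT at -85 and ATTGG at -49, and the Acaca window held neither motif. The letters just before the Acaca start look like the end of an intron, so that window may not be the promoter. Nothing is read from the absence of motifs in it, although it is among the windows counted next. Windows of 24 of the 31 members were matched in the RefSeq table. TCACNCCAC, on either strand, lay in 1 of these 24 against 1.44% of 27025 genes with a window. CCAAT, on either strand, lay in 20 of the 24 against 41.1% of all, and the GC box GGGCGG, on either strand and not marked in the sequences, lay in 20 of the 24 against 38.2% of all. A match is a run of letters and not a measured binding site.

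Values are the deposited normalised read counts, called CPM by the authors and here scaled CPM because the columns sum to between 892246 and 1079916 and not to the same total. The libraries held 18462092 to 26947109 gene reads, and the lowest value of any member rested on 18 reads. The summed level of 8 muscle markers was 843 to 1037 scaled CPM on day 0, with all 8 above 0. On day 1 it was 3091 to 3350 at 0 µM, 2115 to 2560 at 2 µM and 1378 to 1654 at 5 µM. By day 4 it was 14518 to 15946 at 0 µM, 11582 to 13109 at 2 µM and 5011 to 5916 at 5 µM. At 5 µM, 7 of the 8 were called lower on each of days 1, 2 and 4, and the last, the myoblast factor Myf5, was called higher, by 0.60, 1.64 and 2.03 on the log2 scale. At 2 µM, 5 were called lower and 0 higher on day 1, and 3 lower and 1 higher (Myf5, at 0.58 and 0.99) on each of days 2 and 4. The part of these markers in the members' results was not tested. In bulk RNA, fewer differentiated cells and less of a transcript per cell cannot be told apart, which applies to every result below. Of the libraries that stand apart, replicate 1 of the 2 µM group on day 1 had a summed level of 3871 scaled CPM over 13 adipocyte markers, with 12 of the 13 above 0 and Lep at 0, against 26.5 to 136 in the other 29 libraries. Replicate 3 of the 5 µM group on day 1 had a summed level of 403 over 9 lung markers, with all 9 above 0, against at most 0.941 elsewhere. Counts that use day 1 libraries are therefore given also without the library with adipocyte transcripts or without both where they differ.

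Without Cr(VI), most of the 31 genes were higher on each later day than on day 0, and the sterol genes more uniformly so than the fatty acid genes. On day 1 against day 0, 24 members were called higher and 0 lower at an adjusted p below 0.05 in limma, where 25.4% of all tested genes were called higher and 22.7% lower. The 0 lower stood also at an unadjusted p below 0.05, in edgeR and in DESeq2. Without the library with adipocyte transcripts, which shares its spread with this test, Srebf1 joined them (25 higher and 0 lower, with 26.2% and 23.2% of all genes). The median log2 difference of the members was 0.92 against 0.04 over all genes. By day 2 the counts were 25 higher and 2 lower (27.6% and 24.3% of all genes), with a median of 1.08 against 0.06. The 2 lower, Acaca and Elovl6, each lost their call in 4 of the 6 fits that left out one library, at adjusted p up to 0.1 and 0.24. Both were called lower without the library with adipocyte transcripts, at adjusted p of 0.00011 and 0.034. By day 4 the counts were 23 higher and 5 lower (30.3% and 29.5% of all genes), with a median of 0.70 against 0.01. Rescaling every library to the same total moved the day 4 median of all genes to -0.09 and that of the members to 0.57, with 22 higher and 5 lower. The median is in each case that of log2(scaled CPM + 1) differences.

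In the mevalonate pathway all 7 genes were called higher on days 1, 2 and 4. Hmgcs1, which joins acetoacetyl-CoA to acetyl-CoA, measured 178, 177 and 177 scaled CPM on day 0, 495, 389.7 and 468 on day 1, 433, 437 and 404 on day 2 and 361, 329 and 409 on day 4. Its day 0 libraries lay below every later one without overlap, and the log2 difference from day 0 was 1.33 (SE 0.08, adjusted p = 4.4e-15) on day 1. Mvd, the decarboxylase that closes the mevalonate steps, differed by 1.86, and Fdps, which makes farnesyl diphosphate, by 1.52 on the same day. The smallest called difference of this arm on day 4 was that of Acat2, the thiolase that supplies acetoacetyl-CoA, at 0.39 (SE 0.10, adjusted p = 0.0011).

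Between squalene and cholesterol, 9 of 11 genes were called higher on day 1, 11 of 11 on day 2, and 10 of 11 on day 4, when the last was called lower. Dhcr7, the reductase that turns the direct precursor into cholesterol, climbed with each day in control cells, with 26.1, 33.4 and 21.8 scaled CPM on day 0, 64.3, 50.8 and 57.5 on day 1, 73.3, 87.7 and 93.5 on day 2 and 204, 188 and 184 on day 4. These groups did not overlap, and day 4 stood 2.80 (SE 0.12, adjusted p = 5.9e-20) above day 0 on the log2 scale. Sqle, the epoxidase that commits squalene to sterols, behaved otherwise, with 169, 169 and 166 on day 0, 245, 243 and 236 on day 1, 208, 213 and 211 on day 2 and 161, 139.6 and 131 on day 4. It was called higher on days 1 and 2 and lower on day 4, by -0.23 (SE 0.09, adjusted p = 0.027), a call that was lost in 4 of the 6 fits that left out one of the libraries compared, with adjusted p up to 0.15. Ebp, a sterol isomerase, was at 0.22 on day 1 without passing the test and at 1.75 on day 4, where it was called.

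Of the regulators, Insig1 measured 78.6, 53.9 and 56.1 scaled CPM on day 0, 202, 176 and 192 on day 1 and 187, 166 and 186 on day 4. Srebf2, the main activator of sterol genes, had 183, 198 and 181 on day 0, 411, 395 and 385 on day 1 and 277, 282 and 325 on day 4. On days 1 and 4 both lay wholly above day 0, by 1.60 and 1.08 log2 units on day 1. Srebf1, the SREBP gene tied mainly to fatty acid synthesis, had 80.2, 88.2 and 86.3 on day 4 against 61.4, 63.6 and 48.0 on day 0, a difference of 0.56 (SE 0.15, adjusted p = 0.0022).

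The fatty acid genes went different ways in control cells. Scd1, a desaturase that makes oleate, had 372, 351 and 377 scaled CPM on day 0, 1394, 1278 and 1370.4 on day 1 and 1139, 1012 and 1190.5 on day 4. Its near relative Scd2 had 1112, 1022 and 1059.5 on day 0, 2255, 2130.4 and 2247 on day 1 and 2914, 2618 and 3028 on day 4. Both were called higher on all 3 days, whereas Acaca, which makes malonyl-CoA, Elovl6, which lengthens palmitate, and Fads1, which desaturates polyunsaturated chains, were called lower on day 4 at -1.07, -0.90 and -0.73. Fasn, the synthase itself, had 302, 338 and 325 on day 0, 412, 374 and 363 on day 1 and 248, 207 and 247 on day 4. Fasn was not called on any day with all libraries, and on day 4 was called lower without the library that carries adipocyte transcripts (log2 difference -0.46, adjusted p = 0.00072). Acss2, which makes acetyl-CoA from acetate, was called higher on day 4 by 2.19.

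**Figure D1:**
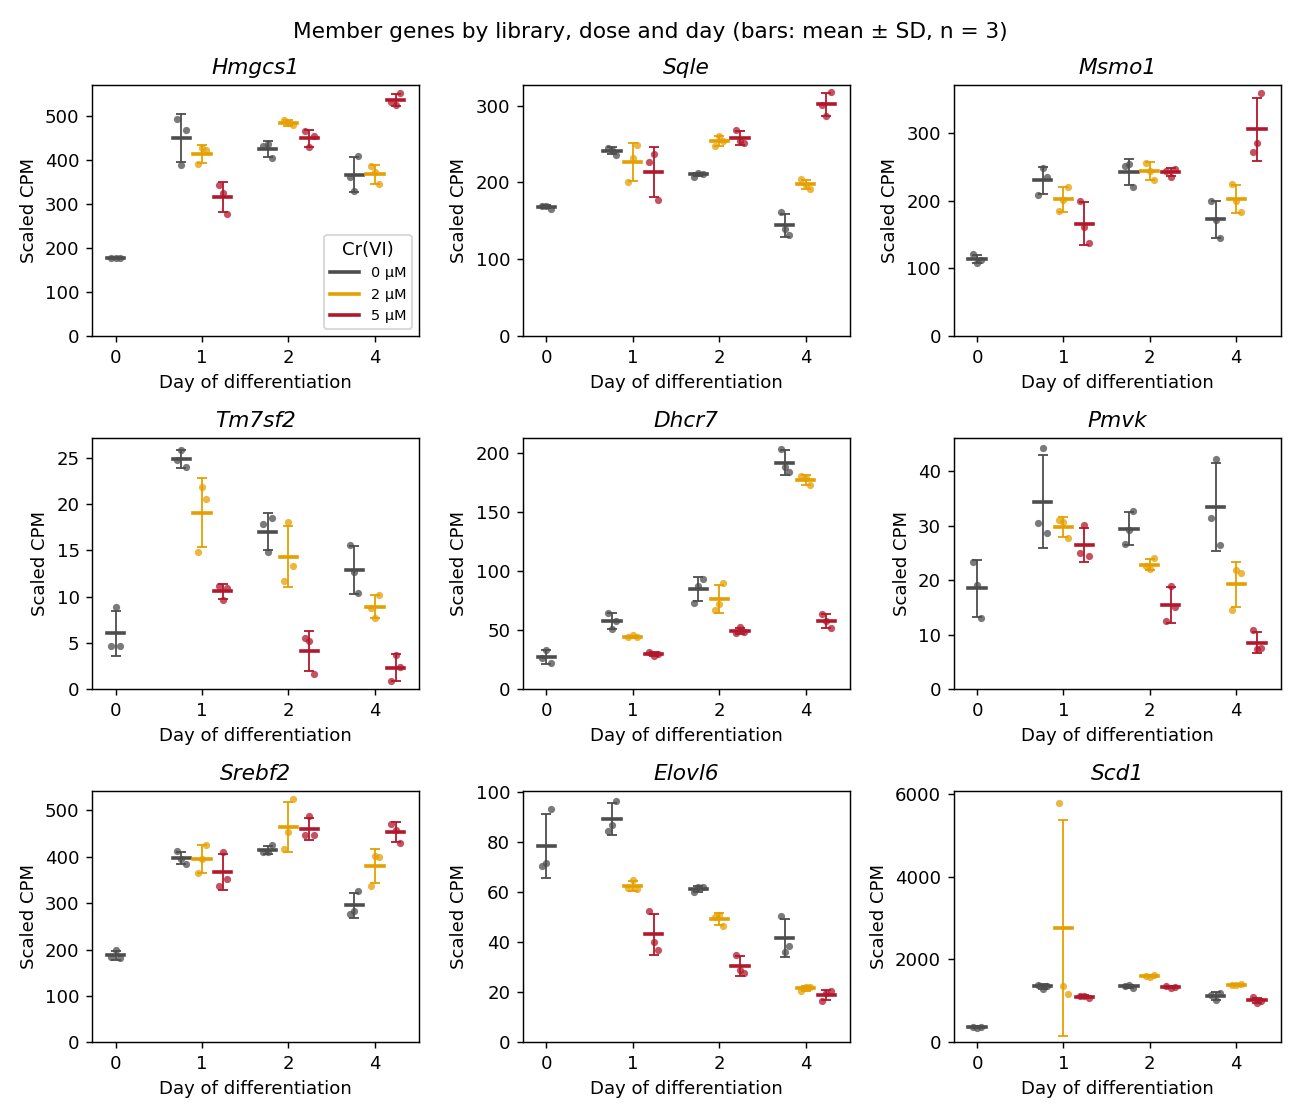
Scaled CPM (y axis, from 0) of 9 members by day of differentiation (x axis), with colour for the Cr(VI) dose, points for single libraries and bars for mean ± SD of 3 libraries. Hmgcs1, Sqle, Msmo1 and Srebf2 stand higher at 5 µM than at 0 µM on day 4, Tm7sf2, Dhcr7, Pmvk and Elovl6 stand lower, and a lone Scd1 library at 5785 stands apart at 2 µM on day 1.

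On day 1, 5 µM Cr(VI) went with lower levels across both routes. In limma 19 of 31 members were called lower and 0 higher, where 9.41% of all tested genes were called lower and 4.29% higher. No member was higher at an unadjusted p below 0.05, in edgeR or in DESeq2. The median log2 difference was -0.48 against -0.01 over all genes. By role, 5 of 7 mevalonate genes, 8 of 11 genes from squalene on, 2 of 4 regulators and carriers, and 4 of 9 fatty acid genes were called lower. The same comparison held 22 lower and 0 higher without the library with adipocyte transcripts (10.1% and 4.8% of all genes), and 21 lower and 0 higher without both libraries that stand apart (8.9% and 4.32%).

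The largest called difference on day 1 was that of Tm7sf2, a sterol reductase that acts after the demethylation of lanosterol, with 11.1, 9.65 and 10.9 scaled CPM at 5 µM against 24.7, 25.9 and 24.0 at 0 µM. The groups were far apart, at -1.16 (SE 0.30, adjusted p = 0.0064). Elovl6 had 52.5, 40.0 and 36.9 at 5 µM against 84.2, 86.6 and 96.3 at 0 µM, a log2 difference of -1.04 (SE 0.13, adjusted p = 4.2e-07). Dhcr7 had 31.4, 28.3 and 29.8 at 5 µM against 64.3, 50.8 and 57.5 at 0 µM, a log2 difference of -0.92 (SE 0.12, adjusted p = 1e-06). None of these 3 genes had overlapping groups. Lss, which folds squalene epoxide into lanosterol, had 38.2, 37.4 and 37.6 at 5 µM against 68.2, 78.3 and 66.6 at 0 µM, and its 5 µM libraries were nearly equal. The log2 difference of Lss was -0.89 (SE 0.11, adjusted p = 2.4e-07).

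Hmgcs1 had 344, 326 and 278 scaled CPM at 5 µM against 495, 389.7 and 468 at 0 µM on day 1, with every treated library below every control one and a log2 difference of -0.51 (SE 0.08, adjusted p = 3.9e-05). Insig1 had 150.0, 157 and 142 at 5 µM against 202, 176 and 192 at 0 µM, also without overlap. Its log2 difference of -0.34 (SE 0.10, adjusted p = 0.015) missed the threshold in 3 of the 6 fits that left out one library, with adjusted p up to 0.081. Scd2 had 1844, 1729.9 and 1521 at 5 µM against 2255, 2130.4 and 2247 at 0 µM, a log2 difference of -0.38 (SE 0.08, adjusted p = 0.00051) with no overlap. The remaining called genes ranged from -0.48 for Fads2, a desaturase of polyunsaturated chains, to -0.79 for Acat2, apart from Fdps at -0.44 and Fdft1, squalene synthase, at -0.40. In that range stood Msmo1, Nsdhl and Hsd17b7, which together strip methyl groups from lanosterol products, Cyp51, the lanosterol demethylase, Idi1, the isopentenyl diphosphate isomerase, Mvk, mevalonate kinase, Stard4, a sterol carrier, and Acaca. The calls of Mvk and Acaca were lost without 3 and without 5 of the 6 libraries in turn, with adjusted p up to 0.085 and 0.12. Those fits kept the 2 µM library with adipocyte transcripts, with which the test shares its spread. Without that library Acaca was called lower at the same difference of -0.70 (adjusted p = 6.2e-05). The call of Fads2 was lost without 2 of the 6 libraries in turn (up to 0.093), and that of Msmo1 without replicate 3 of the 5 µM group, the library with lung transcripts (0.052).

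The other 12 members did not pass on day 1. Sqle had 227, 237 and 177 scaled CPM at 5 µM against 245, 243 and 236 at 0 µM and its groups overlapped, with a log2 difference of -0.19 (SE 0.09, adjusted p = 0.18). Srebf2 had 337, 411 and 352 at 5 µM against 411, 395 and 385 at 0 µM, and Srebf1 had 57.5, 82.6 and 77.4 at 5 µM against 75.3, 66.9 and 72.3 at 0 µM, both overlapping. Fasn had 213, 318 and 303 at 5 µM against 412, 374 and 363 at 0 µM, and Scd1 had 1119, 1121 and 1077 at 5 µM against 1394, 1278 and 1370.4 at 0 µM. In both Fasn and Scd1 every treated library was below every control one, with log2 differences of -0.48 (SE 0.28, adjusted p = 0.28) and -0.28 (SE 0.26, adjusted p = 0.54). Their spread in this test is shared with the 2 µM library that carries adipocyte transcripts, and without it both were called lower at the same differences, with adjusted p of 0.0028 for Fasn and 0.0046 for Scd1. Acly, which cleaves citrate to acetyl-CoA, was likewise called only then (log2 difference -0.33, adjusted p = 0.0029 without that library and 0.12 with it).

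On day 2 at 5 µM, 15 members were called lower and 2 higher, where 13.4% of all tested genes were called lower and 10.2% higher. The count called higher lies near the share of all genes, and nothing particular to the members is read from it. The members' median log2 difference was -0.30 against -0.01 over all genes. By role 5 of 7 mevalonate genes and 4 of 9 fatty acid genes were lower, 6 of 11 genes from squalene on were lower and 2 higher, and none of the 4 regulators and carriers was called. Tm7sf2 had 5.52, 5.20 and 1.63 scaled CPM at 5 µM against 17.9, 14.8 and 18.4 at 0 µM, a log2 difference of -1.92 (SE 0.30, adjusted p = 6e-06). Ebp had 65.1, 58.0 and 54.7 at 5 µM against 125, 131 and 125 at 0 µM, a log2 difference of -1.09 (SE 0.12, adjusted p = 1.8e-08). For both genes the groups lay far apart, and Ebp had overlapped on day 1.

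Elovl6 had 35.0, 28.9 and 27.7 scaled CPM at 5 µM against 60.1, 62.2 and 62.0 at 0 µM on day 2, a log2 difference of -0.99 (SE 0.13, adjusted p = 5.1e-07). Pmvk, the kinase that follows Mvk, had 12.4, 18.9 and 15.0 at 5 µM against 26.6, 29.3 and 32.7 at 0 µM, a log2 difference of -0.91 (SE 0.20, adjusted p = 0.001). Neither gene's groups overlapped. The other called decreases ran from -0.77 in Dhcr7 to -0.30 in Scd2 and took in Acat2, Nsdhl, Mvk, Cyp51, Mvd, Fads2, Lss, Fdps and Fads1. Of these, Mvk lost its call without 4 of the 6 libraries in turn (adjusted p up to 0.11) and Mvd without 2 (up to 0.075). Scd2 had 2220.4, 2157 and 2158 at 5 µM against 2649, 2767 and 2655 at 0 µM, without overlap.

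The 2 genes called higher on day 2 were Sqle, with 268, 254 and 252 scaled CPM at 5 µM against 208, 213 and 211 at 0 µM, and Hsd17b7, with 117, 105 and 97.1 at 5 µM against 83.0, 88.7 and 81.0 at 0 µM. All treated libraries lay above the controls in both, by 0.29 (SE 0.09, adjusted p = 0.014) and 0.33 (SE 0.12, adjusted p = 0.036). Both calls depended on replicate 1 of the 5 µM group, without which neither passed (Sqle adjusted p = 0.066, Hsd17b7 adjusted p = 0.18). Hsd17b7 was also lost without replicate 2 of that group and without replicates 1 and 3 of the control group, at adjusted p of 0.072, 0.093 and 0.12. Without the library with adipocyte transcripts, 3 members were called higher and 15 lower (10.9% and 14.2% of all genes). Sqle and Hsd17b7 kept their calls there, at adjusted p of 0.0085 and 0.02. Fdft1 joined them at 0.22 (adjusted p = 0.044, against 0.054 with all libraries), with the limit of its shared exon bases given below. Both edgeR and DESeq2 also called 3 members higher. Hmgcs1 had 466, 429 and 455 at 5 µM against 433, 437 and 404 at 0 µM, now overlapping, with a log2 difference of 0.08 (SE 0.08, adjusted p = 0.55). Insig1 (167, 172 and 180.4 at 5 µM against 163, 171 and 173 at 0 µM) and Srebf1 (73.7, 80.6 and 92.6 at 5 µM against 77.9, 71.0 and 79.2 at 0 µM) overlapped as well. Srebf2 had 446, 488 and 447 at 5 µM against 409, 409 and 425 at 0 µM, which did not overlap but missed the threshold at 0.15 (SE 0.09, adjusted p = 0.24). Fasn (321, 321 and 281 at 5 µM against 297, 282 and 316 at 0 µM) and Scd1 (1369, 1317 and 1332 at 5 µM against 1354, 1393 and 1322 at 0 µM) overlapped, at log2 differences of 0.04 and -0.02.

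On day 4 at 5 µM, Hmgcs1, Sqle and Msmo1 of the sterol route were called higher than in control cells, as was Fdft1, whose value is uncertain because it shares exon bases with a gene that also rose, and 10 of the 18 sterol enzymes were called lower. In all, 7 members were called higher and 16 lower, where 27.3% of all tested genes were called higher and 28.6% lower. The count called higher lies near the share of all genes, and nothing particular to the members is read from it. The median log2 difference was -0.31 against -0.01 over all genes. By role, 1 mevalonate gene was higher and 4 lower of 7, 3 were higher and 6 lower of 11 from squalene on, 3 of 4 regulators and carriers were higher, and 6 of 9 fatty acid genes were lower with none higher. The role medians were -0.58, -0.64, 0.37 and -0.32 in that order.

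The largest called difference was again that of Tm7sf2, with 0.847, 3.72 and 2.39 scaled CPM at 5 µM against 15.5, 12.6 and 10.4 at 0 µM, from 18, 77 and 41 reads against 309, 249 and 223. Treated libraries varied widely among themselves but all lay below the controls, at a log2 difference of -2.14 (SE 0.30, adjusted p = 2e-07) that understates a ratio at levels this near the pseudocount of 1. Pmvk had 10.8, 7.29 and 7.47 at 5 µM against 31.4, 42.3 and 26.6 at 0 µM, a log2 difference of -1.85 (SE 0.20, adjusted p = 2.3e-09). Dhcr7 had 63.9, 57.6 and 52.0 at 5 µM against 204, 188 and 184 at 0 µM, a log2 difference of -1.72 (SE 0.12, adjusted p = 9.3e-14). Neither gene's groups overlapped, and Dhcr7 at 5 µM stood near its control level of day 1, which was 57.5 ± 6.77 scaled CPM (mean ± SD, n = 3). Acaca had 27.9, 22.7 and 20.9 at 5 µM against 63.1, 54.5 and 83.7 at 0 µM, a log2 difference of -1.44 (SE 0.23, adjusted p = 1.7e-06) without overlap.

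Sqle rose the most, with 300.5, 287 and 318 scaled CPM at 5 µM against 161, 139.6 and 131 at 0 µM, groups far apart at 1.07 (SE 0.09, adjusted p = 3.1e-12). Msmo1 had 272, 286 and 359 at 5 µM against 200.1, 172 and 146 at 0 µM, a log2 difference of 0.82 (SE 0.12, adjusted p = 2.7e-07). Hmgcs1 had 532, 526 and 552 at 5 µM against 361, 329 and 409 at 0 µM, a log2 difference of 0.56 (SE 0.08, adjusted p = 1.1e-06). In all 3 genes the lowest treated library exceeded the highest control library. All 3 regulators and carriers that passed were above control. Srebf2 had 472, 457 and 430.4 at 5 µM against 277, 282 and 325 at 0 µM, a log2 difference of 0.62 (SE 0.09, adjusted p = 3.1e-07). Insig1 had 236, 236 and 234 at 5 µM against 187, 166 and 186 at 0 µM, a log2 difference of 0.39 (SE 0.10, adjusted p = 0.001). Every treated library of Srebf2 and Insig1 exceeded every control library. Stard4 had 65.3, 57.2 and 54.9 at 5 µM against 44.6, 50.9 and 43.8 at 0 µM, a log2 difference of 0.34 (SE 0.11, adjusted p = 0.01), which was lost without replicate 1 of the 5 µM group (adjusted p = 0.069). Srebf1 had 101, 106 and 97.6 at 5 µM against 80.2, 88.2 and 86.3 at 0 µM, also without overlap, yet missed the threshold at 0.25 (SE 0.15, adjusted p = 0.17).

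Other enzymes of the sterol route were lower on day 4. Acat2, which acts one step before Hmgcs1, had 41.2, 35.7 and 40.0 scaled CPM at 5 µM against 96.1, 98.1 and 108 at 0 µM, a log2 difference of -1.35 (SE 0.10, adjusted p = 1.6e-13). Lss, one step after Sqle, had 42.2, 36.0 and 37.2 at 5 µM against 81.5, 58.6 and 71.0 at 0 µM, a log2 difference of -0.85 (SE 0.11, adjusted p = 6.5e-08). Nsdhl, which works beside Msmo1, had 64.5, 62.9 and 50.6 at 5 µM against 149, 131 and 122 at 0 µM, a log2 difference of -1.16 (SE 0.10, adjusted p = 5.3e-12). All 3 were lower in every treated library than in every control library. Ebp (-1.15), Mvk (-1.13), Cyp51 (-0.64) and Fdps (-0.58) were called lower too, and Mvd, Idi1, Hsd17b7 and Sc5d, a sterol desaturase, were not called, at -0.30, 0.03, 0.05 and -0.05.

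In the fatty acid arm on day 4, the steps that supply malonyl-CoA and modify chains were lower at 5 µM, and the synthase and the oleate desaturases did not pass the test. Acss2 had 10.3, 10.0 and 9.28 scaled CPM at 5 µM against 19.8, 31.2 and 29.4 at 0 µM, a log2 difference of -1.33 (SE 0.31, adjusted p = 0.00048). Fads2 had 18.9, 24.8 and 26.9 at 5 µM against 59.2, 57.8 and 57.8 at 0 µM, a log2 difference of -1.29 (SE 0.13, adjusted p = 1.9e-10). Elovl6 had 16.4, 19.6 and 20.3 at 5 µM against 50.5, 36.1 and 38.5 at 0 µM, a log2 difference of -1.10 (SE 0.13, adjusted p = 1.4e-08). None of these 3 overlapped, while Fads1 (-0.28) was called although its groups overlapped. The call of Fads1 was lost without replicate 2 of the control group (adjusted p = 0.053) and without replicate 3 of the 5 µM group (0.057). Acly (-0.32 (SE 0.14, adjusted p = 0.047)) lost its call without 5 of the 6 libraries in turn, at adjusted p up to 0.18. Acly was called lower at the same difference without the library with adipocyte transcripts (adjusted p = 0.00062). Fasn had 218, 183 and 167 at 5 µM against 248, 207 and 247 at 0 µM, overlapping, at -0.31 (SE 0.28, adjusted p = 0.36). Without the library with adipocyte transcripts Fasn was called lower at the same difference (adjusted p = 0.022). Scd1 had 1086, 952 and 1003 at 5 µM against 1139, 1012 and 1190.5 at 0 µM, and Scd2 had 2664, 2510.1 and 2675 at 5 µM against 2914, 2618 and 3028 at 0 µM. Both overlapped, at -0.14 (SE 0.26, adjusted p = 0.69) and -0.12 (SE 0.08, adjusted p = 0.18).

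**Figure D2:**
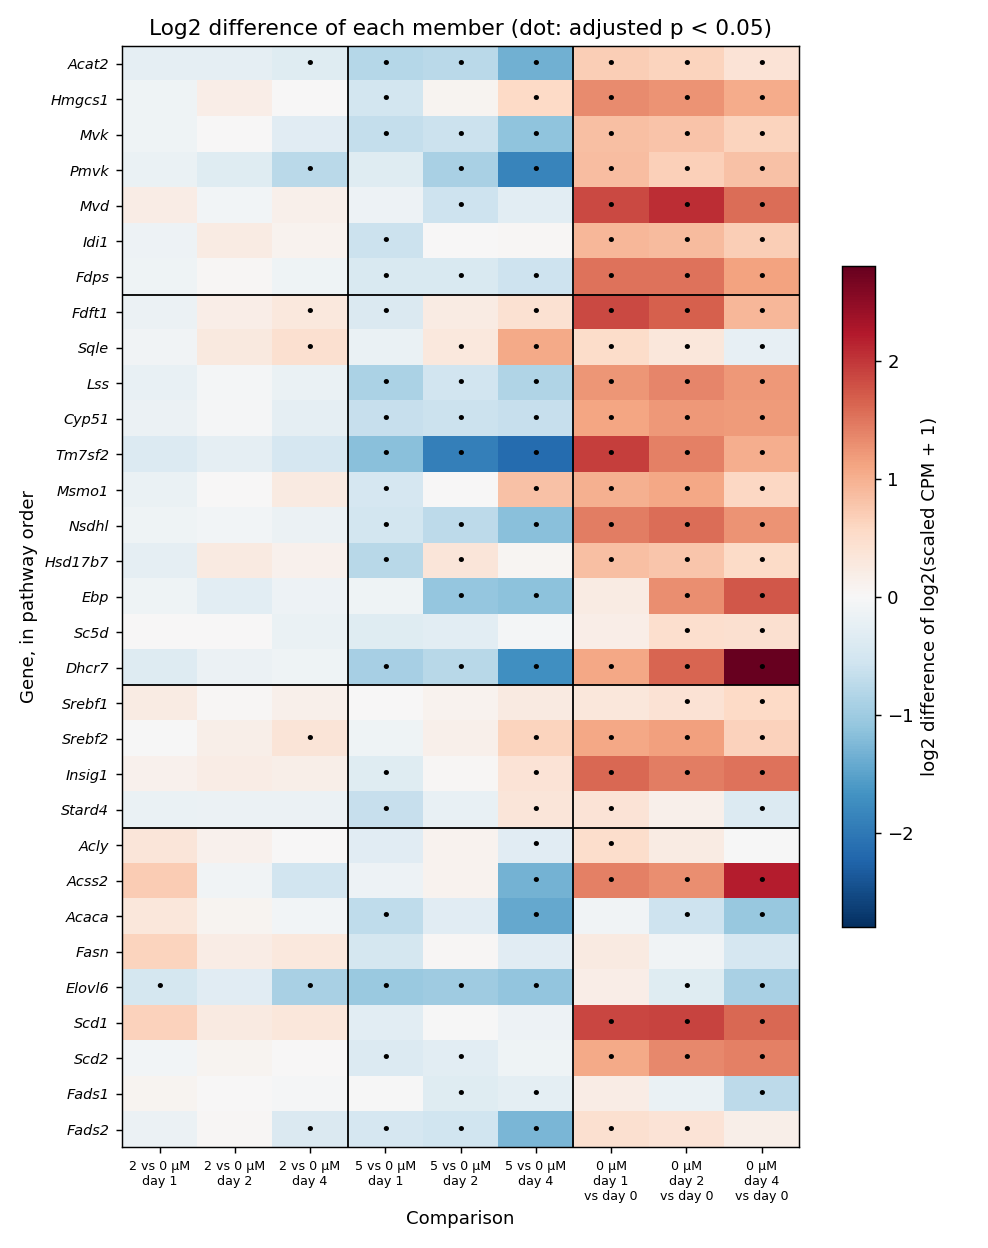
Log2 difference of log2(scaled CPM + 1) for each of the 31 members (rows, in pathway order, horizontal lines between the 4 roles) in 9 comparisons (columns), blue for lower and red for higher, with a dot where the adjusted p was below 0.05. At 5 µM on day 4, red cells of Hmgcs1, Fdft1, Sqle and Msmo1 stand in a sterol block that is otherwise mostly blue, down to -2.14 for Tm7sf2, and the control columns are red for most sterol genes.

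Across the 3 days at 5 µM, 10 members were called lower each time: Mvk, Fdps, Lss, Cyp51, Tm7sf2, Nsdhl, Dhcr7, Acat2, Elovl6 and Fads2, with the losses without single libraries given above for Mvk and Fads2. With all libraries, no member was called higher on all 3 days, 4 were called on none (Sc5d, Srebf1, Fasn and Scd1), and 6 were called lower on one day and higher on another (Hmgcs1, Fdft1, Msmo1, Hsd17b7, Insig1 and Stard4). Fasn and Scd1 were called lower on day 1 without the library with adipocyte transcripts, and Fasn also on day 4. The shares of all tested genes with these patterns were not computed, so nothing particular to the members is read from the counts. The change of the difference itself was tested, day 2 minus day 1 and day 4 minus day 2. Between days 1 and 2 it was called upward in 5 members and downward in 1, where 3.04% and 2.76% of all tested genes were called. Hmgcs1, Idi1, Fdft1, Sqle and Hsd17b7 moved up, by 0.59, 0.61, 0.63, 0.48 and 1.11 log2 units, and Ebp by -0.96. Of these, the change of Idi1 and of Sqle was lost without replicate 3 of the 5 µM group on day 1, the library with lung transcripts, at adjusted p of 0.089 and 0.082, and that of Idi1 also without replicate 3 of the 0 µM group on day 2 (0.052). Without the library with adipocyte transcripts 7 changes were upward and 1 downward (3.45% and 3.13% of all genes), with Fasn and Acly added. Between days 2 and 4 the change was called upward in 5 members and downward in 7, where 12.5% and 11.2% of all tested genes were called. The upward count lies near the share of all genes, and nothing particular to the members is read from it. Hmgcs1, Sqle, Msmo1, Srebf2 and Stard4 moved up by 0.47 to 0.82, and Pmvk, Nsdhl, Dhcr7, Acat2, Acaca, Fads2 and Acss2 moved by -0.43 to -1.43 log2 units. The change of Nsdhl was lost without 3 libraries in turn (adjusted p up to 0.11) and that of Pmvk without 2 (0.061 each). Both intervals share the day 2 libraries, so the changes are not independent.

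**Figure D3:**
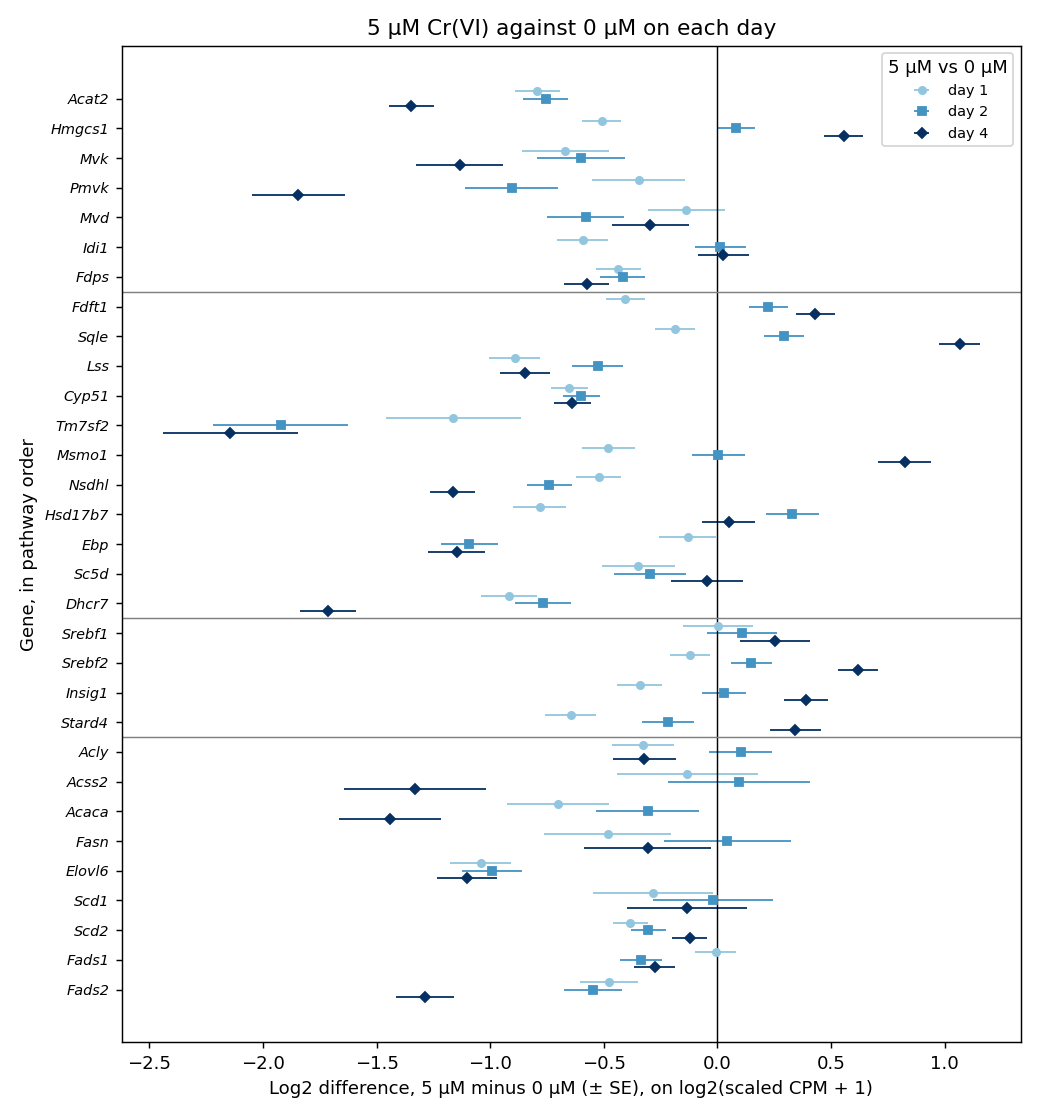
Log2 difference between 5 and 0 µM (x axis, log2(scaled CPM + 1), bars ± SE) for each of the 31 members (y axis, in pathway order), with circles for day 1, squares for day 2 and diamonds for day 4. Hmgcs1 is at -0.51 on day 1, 0.08 on day 2 and 0.56 on day 4, while Dhcr7 lies below 0 on all 3 days and is at -1.72 on day 4.

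At 2 µM few members were called on any day, 1 on day 1, 0 on day 2 and 7 on day 4. On day 1, 1 member was called lower and 0 higher (1.48% and 0.518% of all tested genes), and at an unadjusted p below 0.05 there were 4 in each direction, with 1 higher in edgeR and 0 in DESeq2. The called gene was Elovl6, with 61.6, 64.7 and 61.2 scaled CPM at 2 µM against 84.2, 86.6 and 96.3 at 0 µM. These groups did not overlap, at -0.50 (SE 0.13, adjusted p = 0.037), but the call was lost without the library with adipocyte transcripts (log2 difference -0.49, adjusted p = 0.16) and without 4 other libraries in turn. Without that library 0 members were called in either direction, where 0.527% of all genes were lower and 0.155% higher. On day 2, limma called 0 members in either direction (0.247% of all tested genes lower and 0.263% higher), with 3 lower and 4 higher at an unadjusted p below 0.05 and 0 in edgeR and DESeq2. The log2 differences of all 31 members then lay between -0.35 and 0.27. A fit of the 2 groups alone called 2 lower and 4 higher on day 2, and 2 lower and 3 higher on day 4. Such fits called 623 of 11616 tested genes on day 2 and 883 of 11751 on day 4 in either direction. With all groups the numbers were 66 and 1145 of 12946.

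The sterol enzymes, regulators and desaturases described at 5 µM were measured at 2 µM on days 1 and 2 as well. Hmgcs1 had 392, 428 and 423 scaled CPM at 2 µM on day 1 against 495, 389.7 and 468 at 0 µM, and 492, 485 and 479 at 2 µM on day 2 against 433, 437 and 404 at 0 µM. Sqle had 200.4, 232 and 249 at 2 µM on day 1 against 245, 243 and 236 at 0 µM, and 247, 260.5 and 254 at 2 µM on day 2 against 208, 213 and 211 at 0 µM. Both overlapped with control on day 1 and lay above it on day 2, where Hmgcs1 was at 0.19 (SE 0.08, adjusted p = 0.5) and Sqle at 0.27 (SE 0.09, adjusted p = 0.22). Of the regulators on day 1, Insig1 had 232, 193 and 199 at 2 µM against 202, 176 and 192 at 0 µM, Srebf2 had 365, 395 and 426 at 2 µM against 411, 395 and 385 at 0 µM, and Srebf1 had 128, 70.0 and 64.6 at 2 µM against 75.3, 66.9 and 72.3 at 0 µM, all overlapping. On day 2 Insig1 had 188, 194 and 201 at 2 µM against 163, 171 and 173 at 0 µM, Srebf2 had 417, 453 and 524 at 2 µM against 409, 409 and 425 at 0 µM, and Srebf1 had 74.7, 77.0 and 82.1 at 2 µM against 77.9, 71.0 and 79.2 at 0 µM. Insig1 lay above control without overlap on that day, and Srebf2 and Srebf1 overlapped. Scd2 had 1957, 2116 and 2219 at 2 µM against 2255, 2130.4 and 2247 at 0 µM on day 1 and 2755, 2835 and 2918 at 2 µM against 2649, 2767 and 2655 at 0 µM on day 2. Fasn had 329, 328 and 371 at 2 µM against 297, 282 and 316 at 0 µM on day 2. Scd1 had 1606, 1588 and 1614 at 2 µM against 1354, 1393 and 1322 at 0 µM on that day, a log2 difference of 0.24 (SE 0.26, adjusted p = 0.94). Scd2 overlapped with control on both days, and Fasn and Scd1 lay above it on day 2. None of these genes passed the test at 2 µM on either day.

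On day 4 at 2 µM, 4 members were called lower and 3 higher, where 3.74% and 5.11% of all tested genes were called. Elovl6 had 20.5, 22.1 and 22.2 scaled CPM at 2 µM against 50.5, 36.1 and 38.5 at 0 µM, a log2 difference of -0.91 (SE 0.13, adjusted p = 1.2e-05). Pmvk had 14.5, 21.9 and 21.3 at 2 µM against 31.4, 42.3 and 26.6 at 0 µM, a log2 difference of -0.76 (SE 0.20, adjusted p = 0.014). Both were lower in every 2 µM library than in every control library. Sqle had 204, 197 and 192 at 2 µM against 161, 139.6 and 131 at 0 µM, a log2 difference of 0.46 (SE 0.09, adjusted p = 0.00057). Fads2 had 41.0, 46.3 and 44.2 at 2 µM against 59.2, 57.8 and 57.8 at 0 µM, a log2 difference of -0.40 (SE 0.13, adjusted p = 0.04). Sqle lay wholly above control and Fads2 wholly below. Elovl6 and Sqle kept their calls whichever compared library was left out, whereas Pmvk lost its call without 2 of them (adjusted p up to 0.13) and Fads2 without any 1 of the 6 (up to 0.15).

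Srebf2 had 337, 401 and 399.8 scaled CPM at 2 µM against 277, 282 and 325 at 0 µM on day 4, without overlap and at 0.36 (SE 0.09, adjusted p = 0.0065). Fdft1 had 171, 154 and 162 at 2 µM against 126, 134 and 137 at 0 µM, a log2 difference of 0.30 (SE 0.09, adjusted p = 0.022) that was lost without 3 of the 6 libraries in turn (adjusted p up to 0.11). Its value is uncertain here too, because Ctsb, a gene with which it shares exon bases, differed by 0.54 (adjusted p = 2.4e-06). Acat2 was called lower by -0.34 (SE 0.10, adjusted p = 0.024) and lost the call without 2 libraries in turn (up to 0.17). Hmgcs1 had 387, 373 and 345 at 2 µM against 361, 329 and 409 at 0 µM and Insig1 had 214, 187 and 206 at 2 µM against 187, 166 and 186 at 0 µM. Hmgcs1 overlapped, and the lowest Insig1 library at 2 µM lay just above the highest control library without passing the test, at 0.17 (SE 0.10, adjusted p = 0.32). Srebf1 (88.8, 97.2 and 96.9 at 2 µM against 80.2, 88.2 and 86.3 at 0 µM) did not overlap but did not pass, at 0.15 (SE 0.15, adjusted p = 0.64). Fasn had 262, 315 and 279 at 2 µM against 248, 207 and 247 at 0 µM, and Scd2 had 2872, 2891 and 2817 at 2 µM against 2914, 2618 and 3028 at 0 µM. Fasn lay above without overlap and Scd2 overlapped, and neither passed, at 0.29 (SE 0.28, adjusted p = 0.62) and 0.01 (SE 0.08, adjusted p = 0.98). Scd1 had 1395, 1375 and 1401 at 2 µM against 1139, 1012 and 1190.5 at 0 µM, wholly above, and was called only without the library with adipocyte transcripts (log2 difference 0.32, adjusted p = 0.0021 without it and 0.53 with it). No change of the 2 µM difference between days 2 and 4 was called in limma, edgeR or DESeq2 (0.201% of all tested genes upward and 0.0618% downward), and at an unadjusted p below 0.05 there were 0 upward and 2 downward.

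Set directly against 2 µM, 5 µM gave 16 members lower and 0 higher on day 1 (4.25% and 1.29% of all tested genes), 14 lower and 0 higher on day 2 (8.13% and 4.64%), and 16 lower and 5 higher on day 4 (24.8% and 22.8%). The 0 higher on days 1 and 2 stood also at an unadjusted p below 0.05, in edgeR and in DESeq2. The day 1 count depended on the fit: it was 2 when the 2 groups were fitted alone, 14 without the library with adipocyte transcripts (3.39% of all genes lower and 0.651% higher) and 11 without both libraries that stand apart (2.7% and 0.468%), with 0 higher in each. The fit of the 2 groups alone called 116 of 11675 tested genes in either direction, against 717 of 12946 with all groups. On day 4 Dhcr7 had 63.9, 57.6 and 52.0 scaled CPM at 5 µM against 180.4, 179 and 173 at 2 µM, a log2 difference of -1.60 (SE 0.12, adjusted p = 1.1e-12), while its difference between 2 and 0 µM was -0.11 (SE 0.12, adjusted p = 0.67). Elovl6 was placed otherwise, with 16.4, 19.6 and 20.3 at 5 µM against 20.5, 22.1 and 22.2 at 2 µM, which did not overlap but did not pass the test, at -0.20 (SE 0.13, adjusted p = 0.23). Sqle was graded, at 144 ± 15.3 scaled CPM at 0 µM, 198 ± 6.22 at 2 µM and 302 ± 15.5 at 5 µM (mean ± SD, n = 3 each), and each step passed the test, the upper one at 0.61 (SE 0.09, adjusted p = 7.5e-07). Hmgcs1, Msmo1, Srebf2 and Stard4 were the other genes higher at 5 than at 2 µM, by 0.54, 0.58, 0.26 and 0.50. The call of Srebf2 was lost without 2 of the 6 libraries in turn (adjusted p up to 0.13). Of the members called lower on day 4, Acss2, Acly, Mvd and Fads1 lost their calls in several such fits (adjusted p up to 0.094, 0.16, 0.18 and 0.13). Each was called lower without the library with adipocyte transcripts, at adjusted p of 0.0023, 0.00042, 0.033 and 0.033. Leaving out single libraries gave 11 to 17 members lower on day 1, 11 to 14 on day 2 and 12 to 15 on day 4. The comparisons of 5 with 2 µM share their libraries with those against 0 µM.

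The library with adipocyte transcripts touched some of the fatty acid genes at 2 µM on day 1. Fasn measured 1636, 407 and 315 scaled CPM in its 3 replicates, Scd1 measured 5785, 1354 and 1175, and Acaca measured 349, 121 and 103, the first value in each case being that library. Against the mean of the other 2 replicates it stood at 4.57 times for Scd1, 4.53 for Fasn, 4.22 for Acss2, 3.11 for Acaca, 1.99 for Acly and 1.90 for Srebf1. The other 25 members lay between 0.7 and 1.37 times, so the sterol enzymes did not stand out in it. Neither did Scd2, Elovl6, Fads1 and Fads2 of the fatty acid arm, at 0.903, 0.978, 0.962 and 0.9 times. Adipocyte markers in the same library included Fabp4 at 2529 scaled CPM against at most 1.05 elsewhere, and their part in the fatty acid values was not tested. With that library left out, the 2 µM log2 differences on day 1 were -0.10 for Fasn, -0.09 for Scd1, -0.23 for Acaca and 0.05 for Acss2, against 0.63, 0.64, 0.32 and 0.72 with it, and none was called in either fit. Between 5 and 2 µM on day 1 the calls of Fasn and Scd1 rested on it, at -1.12 and -0.92 with it and at -0.39 (adjusted p = 0.084) and -0.19 (adjusted p = 0.21) without it. In the 5 µM library with lung transcripts the 31 members lay between 0.696 and 1.19 times the mean of its 2 fellow replicates, with a median of 0.943. Without both libraries, Hmgcs1 was at -0.42 (adjusted p = 0.00068), Dhcr7 at -0.92 and Elovl6 at -0.94 between 5 and 0 µM on day 1, and Mvk lost its call (log2 difference -0.59, adjusted p = 0.066).

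**Figure D4:**
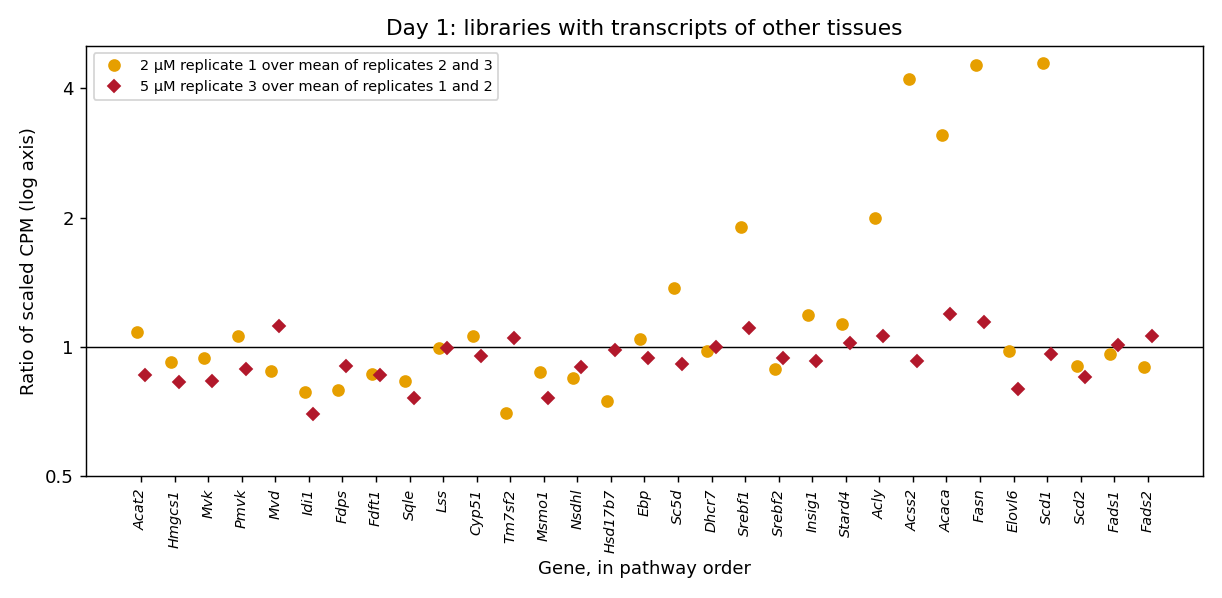
Ratio of a day 1 library to the mean of the other replicates of its group (y axis, log scale) for each of the 31 members (x axis, in pathway order), for replicate 1 at 2 µM (adipocyte transcripts) and replicate 3 at 5 µM (lung transcripts). Scd1, Fasn, Acss2 and Acaca stand at 3.11 to 4.57 times in the 2 µM library, and every member of the 5 µM library lies between 0.696 and 1.19.

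Related genes outside the 31 were read from lists of the same pathways. Beside their counts at 5 µM stand the shares of all tested genes called higher and lower, which were 4.29% and 9.41% on day 1, 10.2% and 13.4% on day 2, and 27.3% and 28.6% on day 4. Many counts lie near these shares, and nothing particular to a list is read from them. Of 10 genes of the machinery that escorts, cleaves and degrades sterol sensors, 0 were called higher and 2 lower at 5 µM on day 1, 1 and 1 on day 2, and 4 and 3 on day 4, when Scap was at 0.77 and Erlin2 and Erlin1, which help degrade sterol-regulated proteins, were at -0.91 and -0.77. Of 15 tested genes of cholesterol uptake, efflux and storage, 0 were called higher and 0 lower on day 1, 2 and 3 on day 2, and 7 and 3 on day 4. On day 4 Npc2, which moves cholesterol out of lysosomes, averaged 659 ± 33.8 scaled CPM at 5 µM and 313 ± 18.8 at 0 µM (SD, n = 3 each), and the efflux transporter Abca1 averaged 4.08 ± 0.761 at 5 µM and 0.754 ± 0.641 at 0 µM. Their log2 differences were 1.07 and 1.59, the second at an adjusted p of 0.033, and that of Scarb1, a lipoprotein receptor, was -1.15. Of 11 genes that draw on farnesyl diphosphate for other products, 0 were called higher and 0 lower on day 1, 2 and 2 on day 2, and 3 and 3 on day 4, with Pdss2 and Coq2 of coenzyme Q synthesis at -1.42 and -1.25 and Icmt at 1.10.

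Of 22 tested genes of other fatty acid and glycerolipid synthesis, 0 were called higher and 2 lower on day 1, 0 and 1 on day 2, and 5 and 5 on day 4. The triglyceride synthases were opposed on day 4, with Dgat1 averaging 5.75 ± 2.58 scaled CPM at 5 µM and 24.5 ± 2.99 at 0 µM, and Dgat2 averaging 10.8 ± 0.480 at 5 µM and 3.21 ± 1.81 at 0 µM (SD, n = 3 each). Their log2 differences were -1.97 and 1.58. Tecr, the reductase of chain elongation that works beside Elovl6, was lower on all 3 days, at -0.40, -0.84 and -1.37. Of 16 genes of fatty acid oxidation, 2 were called higher and 0 lower on day 1, 2 and 0 on day 2, and 2 and 7 on day 4. Cpt1a, which admits fatty acids to mitochondria, averaged 56.8 ± 6.42 scaled CPM at 5 µM and 18.6 ± 0.954 at 0 µM on day 4, and its log2 difference was 0.33 on day 1, 0.71 on day 2 and 1.55 on day 4. Acadvl, an acyl-CoA dehydrogenase, was at -1.36 on day 4. The median log2 differences of the 5 lists on day 4 were 0.21, 0.53, 0.12, 0.09 and -0.14 in the order given, against -0.31 for the 31 members and -0.01 for all genes.

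Some members share sequence or exons with other genes, and whether the counting used strand is not given in the sources used here. Fdft1 shares 774 exon bases with Ctsb on the opposite strand, which stood at a mean of 1037 scaled CPM. Between 5 and 0 µM Ctsb had log2 differences of 0.20, 0.33 and 1.36 on days 1, 2 and 4. Between 2 and 0 µM on day 4 the difference was 0.54. In control cells Ctsb differed from day 0 by 0.65, 0.70 and -0.23 on days 1, 2 and 4. The Fdft1 values are therefore uncertain. Tm7sf2 shares 532 exon bases with Vps51 on the same strand, whose difference on day 4 was 0.32 (adjusted p = 0.098), the opposite sign. Acss2 shares 395 exon bases with Gss on the opposite strand, at a mean of 56.9 scaled CPM. In control cells Gss rose by 0.73 (adjusted p = 1.5e-06) from day 0 to day 4, as Acss2 did. Between 5 and 0 µM on day 4 Gss was at 0.24 (adjusted p = 0.073), the opposite sign to Acss2. Acat2 holds 445 bases that are 98.7% identical to Tcp1 on the opposite strand, whose difference was -0.22 there, and is 97.7% identical over 1477 bases to Acat3, which averaged 0.650 scaled CPM. Idi1, Elovl6 and Acaca have near copies elsewhere in the annotation, and Scd2 is 95.5% identical to Scd1 over 623 bases. Over the 31 members, the day 4 log2 difference at 5 µM had a Spearman rho of -0.27 with GC content and 0.29 with transcript length, given as a description across genes that share their libraries.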

How the data were processed

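The authors deposited 1 table of gene-level signal for 30 RNA-seq libraries, called CPM in the column names, which the labels map to 10 groups of 3; no source used here names the aligner, counter, strand setting, genome build or scaling. Libraries were made with the Illumina TruSeq RNA kit, per the labels' protocols. Within each deposited signal column the values are whole multiples of what 1 read is worth (100% within 0.02 read), so reads were recovered: 18462092 to 26947109 per library. That depth makes the spread between replicates the main limit on precision for all but the lowest genes.

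Log2(scaled CPM + 1) was fitted with limma 3.58.1 (trend, R 4.3.3) on all 30 libraries with group means only and 20 residual degrees of freedom, after a filter of at least 1 scaled CPM in 3 libraries. P-values were adjusted by Benjamini-Hochberg over all 12946 genes tested and called below 0.05; fold changes on this scale understate the change of low genes. Alternatives were other pseudocounts, filters and scalings, a replicate block, fits of the compared groups alone, edgeR 4.0.16 and DESeq2 1.42.0 on the recovered reads, and leaving out libraries. Scripts were tested on simulated data. The 31 members, the related gene lists and the markers were chosen with earlier results of these data known.

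Per-library values are given for Hmgcs1, Sqle, Insig1, Srebf1, Srebf2, Fasn, Scd1, Scd2 and the 4 members with the largest called difference of a dose against 0 µM, and for others by range or as examples picked after their values were seen. From each related list up to 3 called genes with the largest difference per comparison were eligible to be named. Shared sequence was searched with BLAST 2.17.0 at 95% identity over 200 bases. Promoter windows come from RefSeq on GRCm38.p6, which need not be the build behind the deposited table.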

Additional observations from a re-analysis of the deposited data

Results flagged for a closer look

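For 16 members, 18 changes of the 5 against 0 µM difference between consecutive days passed limma's test of the change itself, adjusted over all genes. Of all tested genes, 3.04% were called upward and 2.76% downward from day 1 to day 2. From day 2 to day 4 these shares were 12.5% and 11.2%. The 5 upward changes from day 2 to day 4 lie near that share, and nothing particular to the members is read from their count. From day 1 to day 2 the difference moved up by 0.59 in Hmgcs1 (adjusted p = 0.0012), 0.61 in Idi1 (0.016), 0.63 in Fdft1 (0.00063), 0.48 in Sqle (0.015) and 1.11 in Hsd17b7 (1.5e-05). In the same interval it moved by -0.96 in Ebp (0.00033). From day 2 to day 4 it moved up by 0.47 in Hmgcs1 (0.0036), 0.77 in Sqle (1.8e-05), 0.82 in Msmo1 (0.00031), 0.47 in Srebf2 (0.0051) and 0.56 in Stard4 (0.0092). Over those days it moved by -0.94 in Pmvk (0.016), -0.43 in Nsdhl (0.024), -0.95 in Dhcr7 (0.00011), -0.59 in Acat2 (0.0019), -1.13 in Acaca (0.0084), -0.74 in Fads2 (0.0025) and -1.43 in Acss2 (0.017). Hmgcs1 and Sqle moved up in both intervals. Leaving out single libraries ended the call of Idi1 and Sqle in the first interval and of Pmvk and Nsdhl in the second.

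The values behind the 4 largest in size follow. Hsd17b7 averaged 50.9 ± 2.58 scaled CPM at 5 µM and 88.6 ± 9.70 at 0 µM on day 1, and 106 ± 9.96 at 5 µM and 84.2 ± 4.03 at 0 µM on day 2 (SD, n = 3 each). Acss2 averaged 14.7 ± 0.586 at 5 µM and 13.8 ± 2.09 at 0 µM on day 2, and 9.86 ± 0.514 at 5 µM and 26.8 ± 6.08 at 0 µM on day 4. Acaca averaged 74.97 ± 8.15 at 5 µM and 92.7 ± 4.82 at 0 µM on day 2, and 23.8 ± 3.61 at 5 µM and 67.1 ± 15.1 at 0 µM on day 4. Ebp averaged 55.3 ± 10.9 at 5 µM and 60.3 ± 7.93 at 0 µM on day 1, and 59.3 ± 5.33 at 5 µM and 127 ± 3.32 at 0 µM on day 2. In Acss2 and Ebp the control libraries were the ones that differed most between the days.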

How the results depend on the processing

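Over the recomputed member results with other pseudocounts, filters, scalings, tools, fits and library exclusions, 5425 kept their direction and their side of the threshold, 91 gained a call, 64 lost one and 0 reversed; when each compared replicate was left out in turn, 3204 kept both, 19 gained and 125 lost a call and 0 reversed. Counts of members called changed by more than 1.5 times in few settings. Without the filter on low values, 1 member instead of 2 was higher at 5 µM on day 2, 0 instead of 1 lower at 2 µM on day 1, and 1 instead of 2 lower in controls on day 2. Rescaling every library to the same total gave 1 higher at 5 µM on day 2, and moved the median of all genes in controls on day 4 against day 0 to -0.09, against 0.01. Fits of only the groups compared gave 0 lower at 2 µM on day 1, 4 higher and 2 lower at 2 µM on day 2, 2 lower at 2 µM on day 4, 2 lower between 5 and 2 µM on day 1, and 9 upward changes of the 5 µM difference from day 1 to day 2. Over all tested genes these fits called 45, 623, 883, 116 and 856 in either direction, in that order. The main fit called 258, 66, 1145, 717 and 751. edgeR gave 1 higher at 2 µM on day 1. Leaving out the library with adipocyte transcripts, or both libraries that stand apart, gave 0 lower there. The cause of these shifts was not tested.

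Leaving out single replicates gave 0 to 3 members higher and 0 to 1 lower at 2 µM on day 1, the 3 and a count of 2 arising without replicate 2 and replicate 3 of the 2 µM group. It gave 2 to 3 lower at 2 µM on day 4, 0 to 2 higher at 5 µM on day 2, 0 to 2 lower in controls on day 2, and 3 to 6 upward changes from day 1 to day 2. Between 5 and 0 µM the ranges were 15 to 18 lower on day 1, 13 to 15 lower on day 2, and 14 to 16 lower and 6 to 7 higher on day 4. Between 5 and 2 µM they were 11 to 17 lower on day 1, 11 to 14 on day 2 and 12 to 15 on day 4. Same-numbered replicates did not deviate together (correlations -0.2255 to 0.1278, with every pair above 0.1 in 0 of 12 comparisons). The main fit had no replicate block. With 3 libraries per group the correlations cannot show whether same-numbered replicates were handled together. With a replicate block 3 member calls were gained and 0 lost, giving 5 lower at 2 µM on day 4, 17 lower between 5 and 2 µM on day 1, and 6 upward changes of the 5 µM difference from day 2 to day 4. Depth limits chiefly Tm7sf2 at 5 µM, with 18 to 77 reads on day 4.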
